A study of Homo sapiens with 6 samples.

Results

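The nuclear genes of the respiratory chain and the ATP synthase were followed in HEK293T cells, an SV40 large T antigen-bearing line of human embryonic kidney origin, after silencing of LOC550643. Members were taken by name from a table of 26391 rows: protein-coding rows whose symbol starts with NDUFA, NDUFB, NDUFC, NDUFS, NDUFV, UQCR, ATP5 or COX plus a digit, together with CYC1, CYCS, SDHC and SDHD. This gave 105 genes, all 105 found at the listed place and strand in the GRCh37 annotation, and 7 further rows with such names that are not protein-coding were left out. Of the 105, 99 had enough reads to be tested. The 3 LOC550643 siRNA libraries came from cells that received a pool of 4 siRNAs, and the 3 control siRNA libraries from cells that received a non-silencing siRNA. Both groups were transfected at 50% confluency with the same reagent, and RNA was taken 48 hours later. With 1 pool and 1 control siRNA, effects of the silencing and other effects of either reagent cannot be told apart. LOC550643 encodes a polypeptide that binds EDC4, a scaffold of mRNA decapping, and the study asks if mRNA abundance differs once it is silenced. The labels do not say whether replicates were separate cultures of cells, and p-values therefore reflect only how these libraries vary, which may be technical.

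Oxidative phosphorylation runs in the inner mitochondrial membrane. Complex I passes electrons from NADH, and complex II from succinate, to coenzyme Q. Complex III hands them on to cytochrome c and complex IV to oxygen, while the proton gradient built on the way drives the ATP synthase. Most subunits are encoded in the nucleus and meet a small set made from mitochondrial DNA, and assembly factors insert haem, copper and iron-sulphur clusters without staying in the finished complex. The genes of the mitochondrial genome are not analysed here, so every value below concerns a nuclear mRNA.

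Libraries held 35249992, 30739321 and 8604236 read pairs for LOC550643 siRNA replicates 1 to 3, as inferred from the deposited values, and 32309964, 33421160 and 36082404 for control replicates 1 to 3. LOC550643 siRNA replicate 3 therefore had the largest counting error. The target, listed under its earlier symbol LINC01420, stood at 5.85, 5.96 and 5.42 CPM (the deposited value as a share of the scaled library total, in the usual unit) with the LOC550643 siRNA, against 56.2, 50.7 and 51.8 CPM with the control siRNA (log2 fold change −3.20, SE 0.088, limma adjusted p = 7.38e-09). VIM, NEFL, KRT8 and KRT18, which HEK293T cells express, stood between 39.5 and 928 CPM in every library. INA, also known from these cells, was low, and the blood and endothelial genes PTPRC, CD3E, PECAM1 and CDH5 were at or under 0.0604 CPM. A positive log2 fold change means a higher level after LOC550643 siRNA, on a scale of log2(value + pseudocount). A gene was called at a limma adjusted p under 0.05, with the adjustment made over all 16245 genes tested.

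Respiratory chain and ATP synthase mRNAs changed in both directions and by small amounts. Of the 99 tested, 16 were higher and 16 were lower after LOC550643 siRNA, and 67 did not pass the test. The 32.3% called is close to the 35.6% called among all genes tested, and so are its parts: 16.2% were higher and 16.2% lower, against 17.5% and 18.1% of all genes. The median log2 fold change was −0.02, the same as over all genes, and the median of its size was 0.17 against 0.23. The lowest log2 fold change was −0.63, for NDUFA2. A fitted change of 1.5-fold or more, in either direction, was seen in 2.02% of the members and 12.9% of all genes tested. The members' summed level was 11118, 10556 and 10842 CPM in LOC550643 siRNA libraries and 11368, 9530.3 and 10547 CPM in control libraries, a ratio of means of 1.03 with overlapping groups. Summed over all 26391 rows, the mean level was 1027253 CPM after LOC550643 siRNA and 974194 CPM after control siRNA, a ratio of 1.05. In the authors' deposited table, 13 members are higher and 13 lower at an adjusted p under 0.05, 25 of them also called here, and 0 pass the authors' second threshold, a log2 fold change over 1. In bulk RNA, fewer cells with a message and less of it per cell cannot be told apart.

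**Figure D1:**
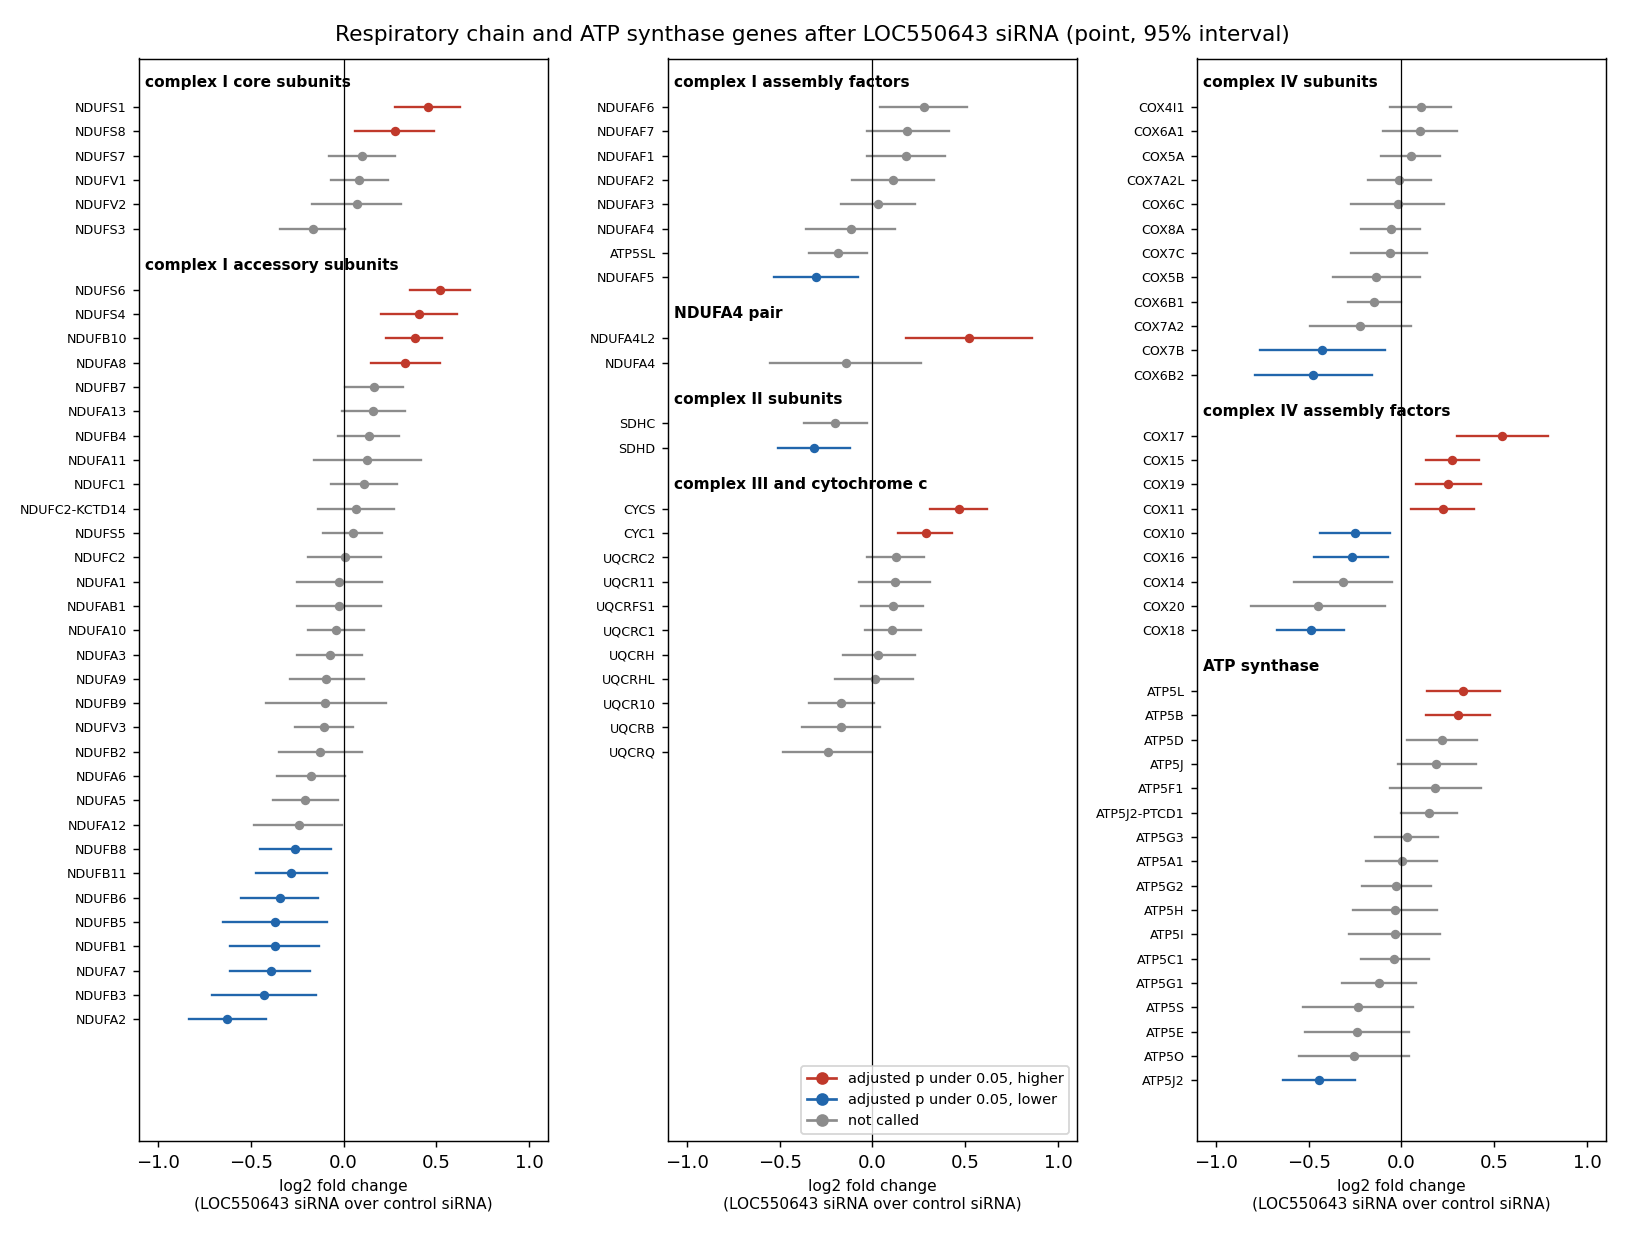
Log2 fold change (x axis, LOC550643 siRNA over control siRNA) of 98 of the 99 tested genes, grouped by complex and sorted within it; points are fitted values and lines their 95% intervals, n = 3 libraries a group. Red marks the 15 drawn genes called higher, blue the 16 called lower and grey the 67 not called; called genes of both colours stand in complex I and in complex IV assembly, from NDUFA2 at −0.63 to COX17 at 0.54.

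How far each call holds depended on which library was left out. Of the 32 called members, 22, 18 and 21 were called again without LOC550643 siRNA replicates 1, 2 and 3. Without control replicates 1, 2 and 3, 17, 28 and 22 were. Control replicate 1 was the highest of its group for 83 of 99 members, and for 29.2% of all genes tested. Control replicate 2 was the lowest for 92 of 99 members, and for 39.8% of all genes. In these libraries the members' median deviation from the control mean was 0.14 and −0.13 on the log2 scale, against 0.00 in control replicate 3. The LOC550643 siRNA libraries spread less, at 0.05, −0.05 and −0.01 for replicates 1 to 3. Their replicate 1 was the highest for 60 of 99 members, and for 31.3% of all genes tested. Their replicate 2 was the lowest for 57 of 99 members, and for 26.8% of all genes. Without control replicate 1, 15 members were higher and 5 lower, where 13.4% and 13.7% of all genes were called; without control replicate 2, 13 were higher and 28 lower, where 16.4% and 17.6% were. The count of lower members was 6, 9 and 8 without LOC550643 siRNA replicate 2, LOC550643 siRNA replicate 3 and control replicate 3, where 14.4%, 15.5% and 14.9% of all genes were lower. Scaling by library totals alone gave 13 higher and 27 lower members, where 12.8% and 24.5% of all genes were called, 37.3% in all. Removing the trend with transcript length gave 28 and 17, where 25.3% and 17.7% of all genes were called, 43.0% in all. With the trends with length and GC content both removed, which was chosen after seeing the data, 35 were higher and 16 lower, where 27.4% and 18.9% of all genes were, 46.3% in all.

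**Figure D2:**
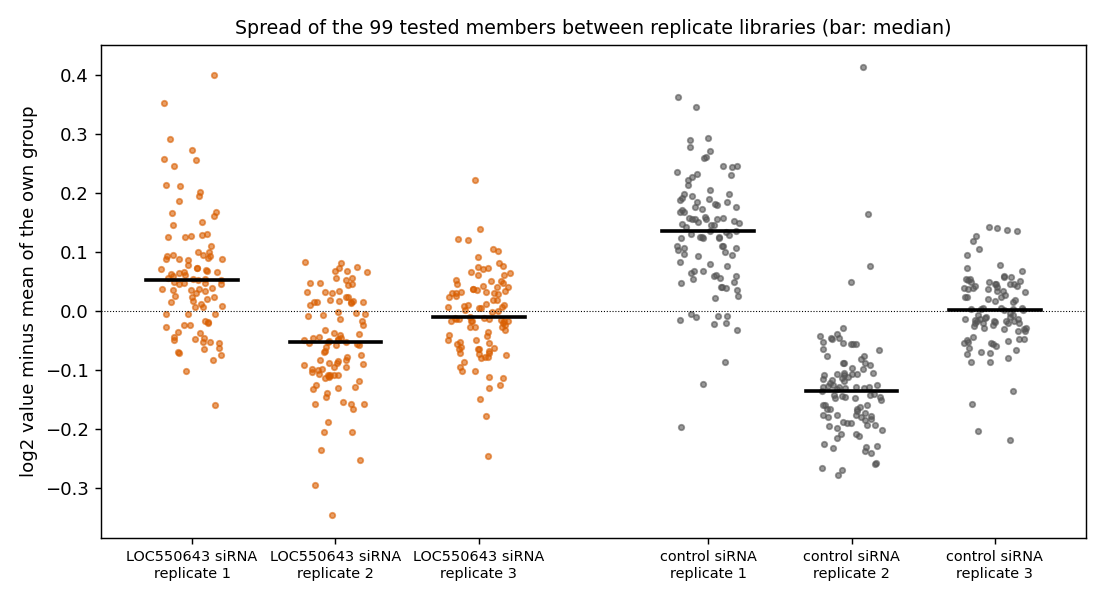
Deviation of each of the 99 tested members from the mean of its own group (y axis, log2 units), 1 column of points per library, LOC550643 siRNA left and control siRNA right; black bars are medians. Control replicate 1 sits above its group at a median of 0.14 and control replicate 2 below it at −0.13, while the LOC550643 siRNA libraries lie within 0.05 of theirs.

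In every fit with 1 library left out, 14 members kept their call and direction, which is 14.1% of the members tested, and 22.7% of all genes tested did so. The same 14 were called in all 17 fits tried, as were 22.2% of all genes. Among those higher in each fit were NDUFS1, NDUFS4, NDUFS6, NDUFA8 and NDUFB10 of complex I, CYC1 and CYCS, and COX15 and COX17 of complex IV assembly. Lower in each fit were NDUFA2, NDUFA7, COX18 and ATP5J2.

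**Figure D3:**
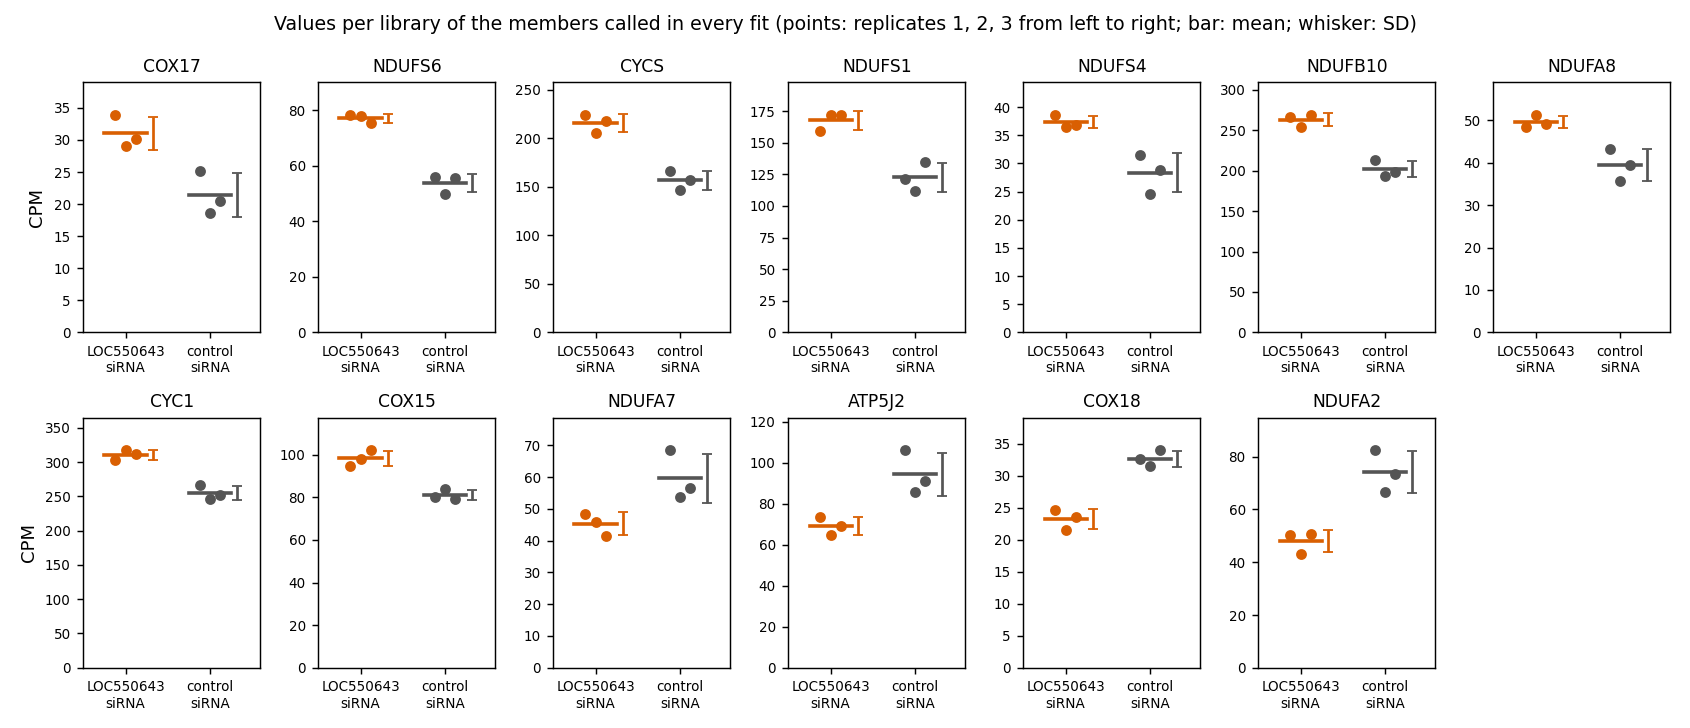
CPM of 13 of the 14 members called in every fit, 1 panel a gene with its own axis from 0; points are replicates 1 to 3 from left to right, LOC550643 siRNA in orange at the left and control siRNA in grey at the right, with a bar at the mean and a whisker of 1 SD. In every panel the lowest library of the higher group stands above the highest library of the lower group, for example 205 against 166 CPM in CYCS.

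Many genes of this set carry short start-site elements that the factors NRF1, GABP (an ETS protein) and YY1 are known to bind. Windows of 300 bases, 250 before to 50 after the start, were found in the RefSeq promoter table (GRCh38.p14) for 84 of the 105 members, and the letters below were searched on both strands. The palindrome of 10 letters that NRF1 binds, which is the first run of capitals in each window below, stood in 7 members' windows (8.33%), against 1.36% of all 27305 windows and 2.23% of the 12492 windows of tested genes. CCGGAAG, the ETS letters, stood in 22 (26.2%), against 10.7% and 17.4%. AAGATGGC, the YY1 letters, stood in 11 (13.1%), against 3.03% and 4.84%. The NRF1 letters were in the windows of 2 of 12 members called higher, 3 of 14 called lower and 2 of 55 not called, so members on both sides carry them. A match describes the letters in the window only. The 4 windows below are shown because they belong to the members called with the smallest p in each direction among those that hold the NRF1 letters, and the same run can be seen near the start of genes that were higher (COX17, NDUFA8) and lower (COX18, SDHD). They are chr3:119677357-119677656 on the minus strand for COX17, chr9:122159730-122160029 on the minus strand for NDUFA8, chr4:73069667-73069966 on the minus strand for COX18 and chr11:112086623-112086922 on the plus strand for SDHD. Each is written 5′ to 3′ along its gene, with capitals for the NRF1 letters and, in COX17 and on the opposite strand in SDHD, the ETS letters.
COX17: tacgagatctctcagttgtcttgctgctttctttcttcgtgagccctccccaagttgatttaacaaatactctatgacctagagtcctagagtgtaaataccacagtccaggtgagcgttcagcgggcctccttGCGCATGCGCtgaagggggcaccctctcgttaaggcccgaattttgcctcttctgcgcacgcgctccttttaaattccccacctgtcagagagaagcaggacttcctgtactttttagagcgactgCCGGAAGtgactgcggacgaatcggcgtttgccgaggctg
NDUFA8: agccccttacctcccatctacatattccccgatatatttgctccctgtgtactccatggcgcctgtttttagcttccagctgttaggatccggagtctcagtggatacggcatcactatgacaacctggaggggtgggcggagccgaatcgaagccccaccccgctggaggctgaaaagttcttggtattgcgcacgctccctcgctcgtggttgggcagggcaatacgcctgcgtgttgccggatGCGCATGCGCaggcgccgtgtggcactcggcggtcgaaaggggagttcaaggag
COX18: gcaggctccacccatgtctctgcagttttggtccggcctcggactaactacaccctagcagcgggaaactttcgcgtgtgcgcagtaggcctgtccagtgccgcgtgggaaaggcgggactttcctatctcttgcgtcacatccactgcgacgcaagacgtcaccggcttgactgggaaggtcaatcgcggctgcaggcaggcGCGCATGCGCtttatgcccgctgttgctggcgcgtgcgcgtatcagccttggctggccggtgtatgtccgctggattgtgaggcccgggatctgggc
SDHD: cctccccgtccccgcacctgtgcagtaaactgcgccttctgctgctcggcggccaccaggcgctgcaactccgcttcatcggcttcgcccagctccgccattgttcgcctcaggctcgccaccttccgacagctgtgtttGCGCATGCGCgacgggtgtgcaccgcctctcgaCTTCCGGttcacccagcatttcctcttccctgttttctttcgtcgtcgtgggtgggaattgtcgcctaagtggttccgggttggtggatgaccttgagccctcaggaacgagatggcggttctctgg
The NRF1 run begins 116 bases before the start of COX17, 4 before that of NDUFA8, where it runs across the start, 47 before that of COX18 and 110 before that of SDHD.

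Among the core subunits of complex I, the nuclear part of the machinery that carries electrons from NADH to coenzyme Q, NDUFS1 and NDUFS8 were higher. NDUFS1, an iron-sulphur subunit of the electron-input arm, had 159, 172 and 172 CPM in LOC550643 siRNA libraries, against 121, 112 and 135 CPM in control libraries. It was higher by log2 0.46 (SE 0.080, limma adjusted p = 0.00121), with no overlap between the groups. NDUFS8, which holds iron-sulphur clusters, averaged 119 ± 12.8 CPM after LOC550643 siRNA and 98.1 ± 10.7 CPM after control siRNA (SD, n = 3 each), and its groups overlapped. Its call (log2 0.28, limma adjusted p = 0.0469) did not hold when LOC550643 siRNA replicate 1 or 2 was left out (adjusted p = 0.16 and 0.136), without control replicate 2 or 3 (0.131 and 0.112), and with upper-quartile scaling or library totals (0.0819 and 0.134). NDUFS8 was also not called without a filter (limma adjusted p = 0.0651). Not called were NDUFV1, NDUFV2, NDUFS7 and NDUFS3. NDUFV1, which binds FMN and NADH, was at log2 0.08, NDUFV2 at 0.07, NDUFS7 at 0.10 and NDUFS3 at −0.16. Without control replicate 2, or with library totals alone, NDUFS3 was called lower (adjusted p = 0.0413 and 0.0324).

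The accessory subunits of complex I, which surround and stabilise the core, moved both ways, with 4 of 31 higher, 8 lower and 19 not called. Of all genes tested, 17.5% were higher and 18.1% lower. The lower count was 4, 3, 2 and 3 without LOC550643 siRNA replicate 2, LOC550643 siRNA replicate 3, control replicate 1 and control replicate 3. In these fits 14.4%, 15.5%, 13.7% and 14.9% of all genes were lower, against 18.1% with all libraries. The peripheral-arm genes NDUFS6 and NDUFS4 stood with the higher ones. NDUFS6, a zinc-binding subunit, had 78.3, 77.8 and 75.3 CPM in LOC550643 siRNA libraries, against 55.9, 50.0 and 55.6 CPM in control libraries (log2 0.52, SE 0.071, limma adjusted p = 0.000266). NDUFS4, whose loss causes some forms of Leigh syndrome, had 38.6, 36.5 and 36.9 CPM after LOC550643 siRNA, against 31.5, 24.6 and 28.9 CPM after control siRNA (log2 0.41, SE 0.094, limma adjusted p = 0.00616). In both, the lowest LOC550643 siRNA library lay above the highest control library. NDUFB10, a disulphide-bonded subunit of the membrane arm, had 266, 254 and 269 CPM with the LOC550643 siRNA, against 213, 194 and 198 CPM with the control siRNA (log2 0.38, SE 0.068, limma adjusted p = 0.00132). NDUFA8, an intermembrane-space subunit with cysteine motifs, had 48.4, 51.3 and 49.2 CPM in LOC550643 siRNA libraries, against 43.3, 35.7 and 39.5 CPM in control libraries (log2 0.33, SE 0.083, limma adjusted p = 0.00909). Neither gene's groups overlapped.

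NDUFA2, a thioredoxin-fold subunit of the peripheral arm (chromosome 5, 140024948 to 140027370, minus strand, hg19), fell most. It had 50.3, 43.3 and 50.6 CPM after LOC550643 siRNA, against 82.4, 66.6 and 73.6 CPM after control siRNA, 0.648 of the control level (log2 −0.63, SE 0.093, limma adjusted p = 0.000449). The groups were well separated. Its exons, taken over all annotated transcripts, share 124 bases with TMCO6 and 54 with IK on the opposite strand. The header of the count shows no strand option. TMCO6 was lower (log2 −0.25, limma adjusted p = 0.0351), IK was not called (log2 0.17), and the part of shared reads in the NDUFA2 value was not tested. NDUFA7, also of the peripheral arm, had 48.5, 46.0 and 41.5 CPM in LOC550643 siRNA libraries, against 68.4, 53.7 and 56.7 CPM in control libraries (log2 −0.39, SE 0.098, limma adjusted p = 0.00966). All its LOC550643 siRNA values lay below all its control values.

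The other 6 lower accessory genes all encode NDUFB subunits, which build the membrane arm and mostly its distal part. Of the 11 NDUFB genes, 1 was higher (NDUFB10) and 6 were lower (NDUFB1, NDUFB3, NDUFB5, NDUFB6, NDUFB8 and NDUFB11), where 17.5% and 18.1% of all genes were. Log2 fold changes of the lower ones ran from −0.43 to −0.26, with a median over the 11 of −0.26. NDUFB6 had 35.1, 34.7 and 34.5 CPM with the LOC550643 siRNA, against 50.6, 39.3 and 43.1 CPM with the control siRNA (log2 −0.34, SE 0.093, limma adjusted p = 0.0139). NDUFB8, often used as a marker of assembled complex I, had 127, 126 and 114 CPM after LOC550643 siRNA, against 159, 130.1 and 150.2 CPM after control siRNA (log2 −0.26, SE 0.086, limma adjusted p = 0.0348). In both genes control replicate 1 was the highest and control replicate 2 the lowest of the controls, and control replicate 2 came close to the LOC550643 siRNA values. Without control replicate 1, 0 NDUFB genes were called lower and the adjusted p of these 6 ran from 0.0693 to 0.164, where 13.7% of all genes were lower. Without control replicate 2, 7 were called lower, where 17.6% of all genes were. Without LOC550643 siRNA replicates 1, 2 or 3 or control replicate 3 the count was 4, 2, 1 and 1. In these fits 15.7%, 14.4%, 15.5% and 14.9% of all genes were lower. The summed NDUFB level was 934, 874 and 867 CPM in LOC550643 siRNA libraries, against 992, 814 and 892 CPM in control libraries, and so overlapped. NDUFB5 and NDUFB3 had overlapping groups.

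Of 8 complex I assembly factors, 0 were higher and 1 was lower, where 17.5% and 18.1% of all genes were. Their median size of change was log2 0.18, against 0.17 over the members. With the trends with length and GC content both removed, 4 of the 8 were called higher, where 27.4% of all genes were. NDUFAF5, which hydroxylates NDUFS7, had 14.1, 12 and 12.1 CPM after LOC550643 siRNA, against 17.1, 14.9 and 15.1 CPM after control siRNA (log2 −0.30, SE 0.10, limma adjusted p = 0.0386). The groups did not overlap, but the call did not hold when LOC550643 siRNA replicate 2 or 3 was left out (adjusted p = 0.127 and 0.0994) and without control replicate 1 or 3 (0.164 and 0.0655). Nor did it hold without a filter (limma adjusted p = 0.0543). NDUFAF6, an early factor, averaged 10.2 ± 0.501 CPM after LOC550643 siRNA and 8.42 ± 0.711 CPM after control siRNA (SD, n = 3 each), and did not pass the test (log2 0.28, limma adjusted p = 0.0639). ATP5SL, now named DMAC2 and a factor of the distal membrane arm despite its older name, was at log2 −0.19 (limma adjusted p = 0.0615), and without control replicate 2 at an adjusted p of 0.0287.

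NDUFA4 was first isolated with complex I and is counted with complex IV today, so it and its paralogue are given by themselves. NDUFA4 had 87.1, 51.9 and 63.5 CPM with the LOC550643 siRNA, against 93.8, 60.1 and 68.7 CPM with the control siRNA. Replicate libraries differed more than the groups did, and it was not called (log2 −0.14, 95% interval −0.55 to 0.26, limma adjusted p = 0.572). NDUFA4L2, the paralogue induced by hypoxia, was low, at 3.32, 2.78 and 3.45 CPM in LOC550643 siRNA libraries, against 2.19, 2.13 and 2.29 CPM in control libraries (log2 0.52, SE 0.16, limma adjusted p = 0.0228). Its groups did not overlap. The call did not hold when LOC550643 siRNA replicate 1 or 3 was left out (adjusted p = 0.0664 and 0.0565), without control replicate 1 or 2 (0.073 and 0.056) and without a filter (0.0523). Its exons share 33 bases with SHMT2 on the opposite strand, a gene at 695 CPM after LOC550643 siRNA and 530 CPM after control siRNA (log2 0.39, limma adjusted p = 0.00421), and the part of SHMT2 reads in the NDUFA4L2 value was not tested.

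Of complex II, the set holds the membrane anchors SDHC and SDHD, which bind haem and hold the enzyme at coenzyme Q. Of these 2 genes 1 was lower, where 18.1% of all genes were. SDHD had 60.4, 60.4 and 67.2 CPM after LOC550643 siRNA, against 85.1, 68.5 and 80.8 CPM after control siRNA (log2 −0.31, SE 0.090, limma adjusted p = 0.0181), with a narrow gap between the groups. SDHC had 58.1, 55.7 and 63.5 CPM in LOC550643 siRNA libraries, against 70.8, 62.9 and 70 CPM in control libraries, overlapping at 1 library a group (log2 −0.20, limma adjusted p = 0.0663). The SDHD call did not hold when LOC550643 siRNA replicate 1 or 2 was left out (adjusted p = 0.0605 and 0.0695) and without control replicate 1 or 3 (0.0943 and 0.0612). SDHC was called lower without LOC550643 siRNA replicate 3 (0.044) or control replicate 2 (0.0239), and with upper-quartile scaling or library totals (0.0445 and 0.017).

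In complex III and its partner cytochrome c, 2 of 11 genes were higher and 0 lower, where 17.5% and 18.1% of all genes were. These 2 encode the cytochromes c1 and c, which pass electrons from complex III towards complex IV. CYCS, the somatic cytochrome c that also starts apoptosome formation (chromosome 7, 25158270 to 25164980, minus strand, hg19), had 224, 205 and 218 CPM with the LOC550643 siRNA, against 166, 147 and 157 CPM with the control siRNA. It was 1.38-fold higher (log2 0.46, SE 0.072, limma adjusted p = 0.000561), with well separated groups. CYC1, cytochrome c1, had 303, 317 and 312 CPM in LOC550643 siRNA libraries, against 266, 246 and 252 CPM in control libraries (log2 0.29, SE 0.067, limma adjusted p = 0.00641). The other 9, among them the core proteins UQCRC1 and UQCRC2 and the Rieske protein UQCRFS1, ran from log2 −0.24 (UQCRQ, limma adjusted p = 0.103) to 0.13 and were not called. Without control replicate 2, 3 of complex III were called lower, UQCRQ, UQCRB and UQCR10 (adjusted p = 0.0245, 0.0139 and 0.0279), where 17.6% of all genes were. UQCRH, the hinge protein, and its intron-less copy UQCRHL can share reads, so their values of log2 0.03 and 0.01 are uncertain.

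Structural subunits of complex IV, cytochrome c oxidase, had a median size of change of log2 0.10, the smallest of the 9 groups plotted. Of 12 tested, 0 were higher and 2 lower, where 17.5% and 18.1% of all genes were. COX7B, an X-linked membrane subunit, had 92.6, 63.6 and 80.6 CPM after LOC550643 siRNA, against 133, 92.0 and 94.1 CPM after control siRNA. The groups overlapped by a narrow margin, and the call (log2 −0.43, limma adjusted p = 0.0485) did not hold when LOC550643 siRNA replicate 2 or 3 was left out (adjusted p = 0.199 and 0.0961), without control replicate 1 (0.202), with median-of-ratios scaling (0.0542) and in DESeq2 (0.162). COX6B2, the testis isoform of subunit 6B, was low, at 3.48, 3.08 and 3.22 CPM in LOC550643 siRNA libraries, against 4.67, 5.09 and 3.94 CPM in control libraries (log2 −0.48, SE 0.14, limma adjusted p = 0.0241). Its call did not hold without LOC550643 siRNA replicate 2 (0.078) and without control replicate 1 or 2 (0.0836 and 0.0738). Without a filter neither COX7B nor COX6B2 was called, and with a pseudocount of 0.1 only 1 of them was. COX6B1, the somatic isoform, stood at 109 ± 5.42 CPM after LOC550643 siRNA and 120 ± 4.1 CPM after control siRNA (SD, n = 3 each; log2 −0.14, limma adjusted p = 0.12).

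Several complex IV subunits exist as tissue isoforms, and HEK293T cells used the common ones in both groups. COX4I1 averaged 271 ± 8.59 CPM after LOC550643 siRNA and 253 ± 20.8 CPM after control siRNA (SD, n = 3 each), while the lung isoform COX4I2 was listed at 0 in all 6 libraries. The limit that a count of 0 allows, 3 read pairs, is 2.44 to 10.3 deposited units across the libraries, where 1 unit is 0.034 CPM. COX6A1 averaged 190.3 CPM after LOC550643 siRNA and 178 CPM after control siRNA, and the heart and muscle isoform COX6A2 was at 0 except for 0.0302 CPM in control replicate 1. COX7A2 averaged 93.7 CPM after LOC550643 siRNA and 110 CPM after control siRNA, and the muscle isoform COX7A1 0.0257 CPM after LOC550643 siRNA and 0.0243 CPM after control siRNA. These members of each pair thus differ far more from each other than the groups do. COX8A averaged 191 CPM after LOC550643 siRNA and 199 CPM after control siRNA, and its testis isoform COX8C 0.213 CPM after LOC550643 siRNA and 0.358 CPM after control siRNA. COX7B2, the testis isoform of COX7B, was listed at 0 throughout. None of the common isoforms COX4I1, COX6A1, COX7A2 and COX8A was called (limma adjusted p = 0.296, 0.409, 0.177 and 0.563).

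The factors that assemble complex IV had the largest share of calls among the groups plotted, 4 higher and 3 lower of 9 (77.8%), where 35.6% of all genes were called. All 9 had groups that did not overlap, where 48.6% of all genes did not. Of the 7 called, 3, 3 and 4 were called again without LOC550643 siRNA replicates 1, 2 and 3. Without control replicates 1, 2 and 3, 3, 6 and 5 were. Without a filter 4 of the 7 were called again, and with upper-quartile scaling or the replicate block 6 were. COX17, the chaperone that carries copper to the complex (chromosome 3, 119388372 to 119396243, minus strand, hg19), had 33.9, 29.1 and 30.1 CPM with the LOC550643 siRNA, against 25.2, 18.6 and 20.5 CPM with the control siRNA (log2 0.54, SE 0.11, limma adjusted p = 0.00341). COX15, the haem A synthase, had 94.8, 97.8 and 102 CPM after LOC550643 siRNA, against 80.0, 83.9 and 79.4 CPM after control siRNA (log2 0.27, SE 0.066, limma adjusted p = 0.00752). COX18, which inserts COX2 into the membrane (chromosome 4, 73920413 to 73935476, minus strand, hg19), had 24.7, 21.5 and 23.6 CPM in LOC550643 siRNA libraries, against 32.6, 31.5 and 34.0 CPM in control libraries (log2 −0.49, SE 0.082, limma adjusted p = 0.000941). These 3 calls held in every fit. COX19 and COX11, which handle copper, were higher by log2 0.25 and 0.22 (limma adjusted p = 0.0288 and 0.0415), and COX10, the farnesyltransferase that acts before COX15, was lower, at 27.9, 31.4 and 30.7 CPM after LOC550643 siRNA, against 33.6, 34.3 and 39.3 CPM after control siRNA (log2 −0.25, limma adjusted p = 0.0427). COX16, a factor of COX2 assembly, was lower at log2 −0.27 (limma adjusted p = 0.0407).

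Those last 4 calls were the less firm ones of complex IV assembly. The COX11 call did not hold without LOC550643 siRNA replicates 1, 2 and 3 (adjusted p = 0.124, 0.0732 and 0.0731) and without control replicates 1 and 2 (0.094 and 0.141). The COX10 call did not hold without LOC550643 siRNA replicates 1, 2 and 3 (adjusted p = 0.134, 0.0619 and 0.0693) and without control replicates 1 and 3 (0.0556 and 0.163). The COX16 call did not hold without LOC550643 siRNA replicates 1, 2 and 3 (0.109, 0.0585 and 0.102) and without control replicates 1 and 3 (0.175 and 0.0529). The COX19 call did not hold without LOC550643 siRNA replicates 1 and 2 (0.079 and 0.0828) and control replicate 1 (0.127). With library totals alone COX11 and COX19 were not called (0.149 and 0.103), which left 2 higher and 5 lower of the 9. The exons of COX11 share 971 bases with TOM1L1 on the opposite strand, itself higher (log2 0.39, limma adjusted p = 0.00418). COX20, a chaperone of COX2, shares 3502 exon bases with HNRNPU on the opposite strand, counted over all annotated transcripts. The listed COX20 transcript has only 2610 bases, so the overlap of the counted row is smaller. HNRNPU stood at 714 CPM after LOC550643 siRNA and 563 CPM after control siRNA (log2 0.35, limma adjusted p = 0.00668). COX20 itself had 33.4, 27.4 and 38.1 CPM with the LOC550643 siRNA, against 38.9, 59.4 and 38.3 CPM with the control siRNA (log2 −0.45, limma adjusted p = 0.0512). Its groups lay close together, and control replicate 2 stood apart. The part of reads from the partner genes was not tested. COX14, an early factor that binds COX1, was at log2 −0.32 (limma adjusted p = 0.0627), and without control replicate 2 at 0.0158.

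In the ATP synthase, 2 of 17 genes were higher and 1 was lower, where 17.5% and 18.1% of all genes were. ATP5B, the catalytic beta subunit and the most abundant member in CPM (chromosome 12, 57031959 to 57039852, minus strand, hg19), had 916, 981 and 956 CPM after LOC550643 siRNA, against 789.9, 711 and 813 CPM after control siRNA. The groups did not overlap (log2 0.30, SE 0.082, limma adjusted p = 0.0134), and the call did not hold without LOC550643 siRNA replicate 2 (adjusted p = 0.0625). ATP5A1, the alpha subunit that alternates with beta in the catalytic ring, had 441, 442 and 455 CPM in LOC550643 siRNA libraries, against 464, 393 and 483 CPM in control libraries (log2 0.00, 95% interval −0.19 to 0.19). It is named beside its partner after its values were seen. ATP5L and ATP5J2 encode subunits g and f of the membrane part, where dimers form. ATP5L had 169, 148 and 164 CPM with the LOC550643 siRNA, against 144, 115 and 125 CPM with the control siRNA (log2 0.33, SE 0.089, limma adjusted p = 0.0136), and its call did not hold without LOC550643 siRNA replicate 1 (adjusted p = 0.0533). ATP5J2 had 73.5, 64.8 and 68.9 CPM in LOC550643 siRNA libraries, against 106, 85.9 and 90.9 CPM in control libraries (log2 −0.45, SE 0.088, limma adjusted p = 0.00255), and its call held in every fit. ATP5J2 shares exons with PTCD1, which was higher (log2 0.30, limma adjusted p = 0.00578), and with the readthrough ATP5J2-PTCD1 (log2 0.15, limma adjusted p = 0.115), so the authors' counting could split reads among these rows. The genes of the rotor ring subunit c, ATP5G1, ATP5G2 and ATP5G3, stood at log2 −0.12, −0.03 and 0.03, with none called. Without control replicate 1, 4 ATP synthase genes were higher, ATP5D and ATP5J being added (adjusted p = 0.0233 and 0.0467). The higher count was 1 without LOC550643 siRNA replicate 1 and 1 without LOC550643 siRNA replicate 2. In these fits 13.4%, 15.5% and 12.7% of all genes were higher. The lower count was 3 without control replicate 2, with ATP5E and ATP5O added (0.0273 and 0.0222), and 2 without LOC550643 siRNA replicate 1, with ATP5S added (0.049). In these fits 17.6% and 15.7% of all genes were lower.

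Levels per kilobase of transcript differed far more between members than between groups. COX7C, a small subunit of complex IV, was the highest at 601 CPM per kilobase after LOC550643 siRNA and 629 after control siRNA. ATP5B followed at 519.6 CPM per kilobase after LOC550643 siRNA and 421 after control siRNA, and COX8A at 379.8 after LOC550643 siRNA and 396 after control siRNA. The lowest tested members were NDUFA4L2 at 2.7 CPM per kilobase after LOC550643 siRNA and 1.87 after control siRNA, COX6B2 at 1.97 after LOC550643 siRNA and 2.76 after control siRNA, and NDUFAF6 at 5.68 after LOC550643 siRNA and 4.7 after control siRNA. By group the median level, over both conditions, was 201 CPM per kilobase for complex IV subunits, 162 for the ATP synthase, 110.4 for complex III and cytochrome c, 75.4 and 65.3 for accessory and core subunits of complex I, 15 for complex IV assembly factors and 12.9 for complex I assembly factors. The assembly factors thus lay below the subunits they serve, while 8 of 17 assembly factors (47.1%) and 24 of 82 subunits and cytochrome c (29.3%) were called, on either side of the 35.6% of all genes tested. These shares are descriptions. Of the 8 called assembly factors, 4, 3 and 4 were called again without LOC550643 siRNA replicates 1, 2 and 3. Without control replicates 1, 2 and 3, 3, 7 and 5 were.

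**Figure D4:**
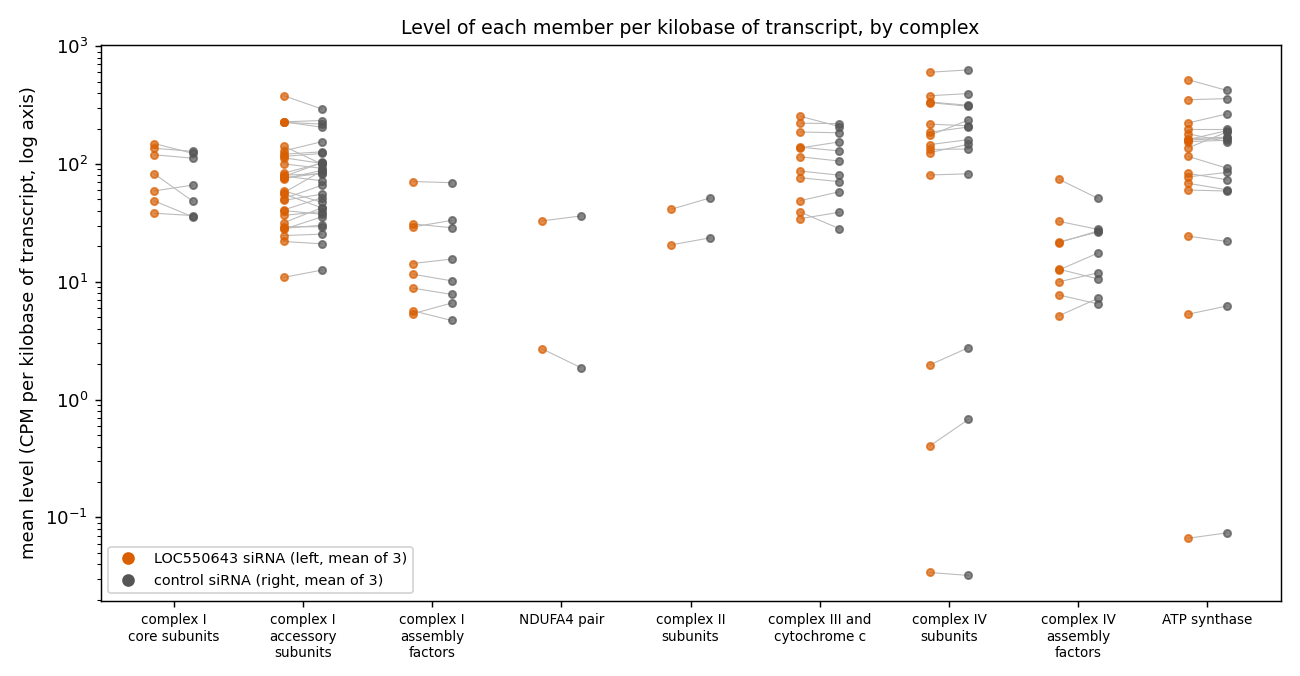
Mean level of each member (y axis, CPM per kilobase of transcript, log axis) by group; orange points at the left of each group are LOC550643 siRNA and grey points at the right control siRNA, both means of 3 libraries, with a line joining each gene. Lines are nearly flat beside a range from 615 CPM per kilobase in COX7C to under 1 in the tissue isoforms; COX4I2 and COX7B2, at 0, are not drawn.

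Respiratory chain mRNAs are short, with a median transcript length of 1109 bases against 2886 bases over all genes tested, and the fold changes of all genes varied with length. Among the 21 members of up to 600 bases, 2 were higher (9.52%) and 4 lower (19%), while 5.84% and 7.16% of the 531 genes of that length were. Among the 8 members over 4000 bases, 3 were higher, COX15, COX19 and CYCS, and 1 was lower, COX18. Of the 5113 genes tested of that length, 16.6% were higher and 20.1% lower. The 8 members are too few to set closely against those shares. The members of up to 600 bases had median deviations of 0.19 in control replicate 1 and −0.18 in control replicate 2, against 0.14 and −0.13 over all tested members. The part of length in the single calls was not tested beyond the fits with the trend removed, in which each of the 32 called members was called again.

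**Figure D5:**
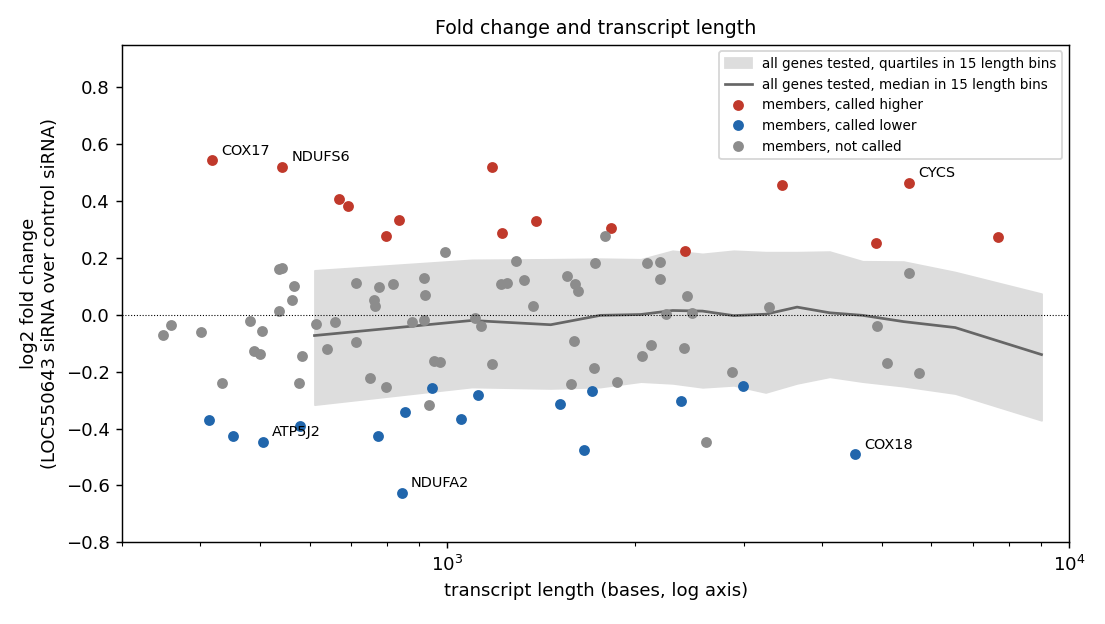
Log2 fold change (y axis, LOC550643 siRNA over control siRNA) against transcript length (x axis, bases, log axis); points are 98 of the 99 tested members by call, the line is the median of all genes tested in 15 length bins and the grey band their quartiles. The line sits at −0.07 in the shortest bin and at −0.14 in the longest, and called members of both directions occur among short and long transcripts.

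Genes that serve the same pathway without being members were counted as well, 97 tested in 10 lists, of which 20 were higher (20.6%), 17 lower (17.5%) and 60 not called, close to the 17.5% higher and 18.1% lower among all genes tested. The lower count was 8, 10, 8 and 10 without LOC550643 siRNA replicate 2, LOC550643 siRNA replicate 3, control replicate 1 and control replicate 3, where 14.4%, 15.5%, 13.7% and 14.9% of all genes were lower. The machinery that copies and transcribes mitochondrial DNA had 5 of 10 higher and 1 lower, a list too short to set closely against those shares. TOP1MT, the mitochondrial topoisomerase, averaged 83.3 ± 0.324 CPM after LOC550643 siRNA and 52.8 ± 3.85 CPM after control siRNA (SD, n = 3 each; log2 0.66, limma adjusted p = 6.93e-05), and POLG, the DNA polymerase, 149 ± 9.18 CPM after LOC550643 siRNA and 107 ± 7.06 CPM after control siRNA (log2 0.49, limma adjusted p = 0.000585). Among 11 transcriptional regulators 0 were higher and 2 lower. ESRRA, a nuclear receptor that drives respiratory genes, averaged 40.4 ± 0.697 CPM after LOC550643 siRNA and 59.0 ± 1.97 CPM after control siRNA (SD, n = 3 each; log2 −0.54, limma adjusted p = 0.000152). Its coactivator PPARGC1A was lower at log2 −0.32 (limma adjusted p = 0.0344). The PPARGC1A call did not hold without LOC550643 siRNA replicates 1, 2 and 3 (adjusted p = 0.0871, 0.0542 and 0.0774), without control replicate 3 (0.139) and with the length trend removed (0.0817). Nor did it hold with length and GC trends removed, without a filter or with a replicate block (limma adjusted p = 0.0625, 0.0516 and 0.0516). The factors whose letters were searched in the promoters, NRF1, GABPA and YY1, were looked up for that reason and not called (log2 0.14, 0.09 and 0.08).

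Other assembly factors again moved both ways. Beside each count below, 17.5% of all genes tested were higher and 18.1% lower, and the lists are short. Of complex I factors outside the name rule, 2 of 10 were higher and 2 lower, among them ACAD9 (log2 0.40, limma adjusted p = 0.00127) and ECSIT (log2 −0.53, limma adjusted p = 0.000358), partners in early assembly. Of complex IV factors 3 of 16 were higher and 5 lower. OXA1L, the insertase of the inner membrane, had 138, 137 and 133 CPM with the LOC550643 siRNA, against 210.4, 192 and 216 CPM with the control siRNA (log2 −0.60, SE 0.069, limma adjusted p = 9.01e-05). Like its relative COX18 it was lower in all 3 libraries, and COA3 was lower at log2 −0.40 (limma adjusted p = 0.00254). For complex III, 1 of 6 factors was higher and 0 lower, UQCC3 (log2 0.48, limma adjusted p = 0.00104), and for complex II 0 of 4 higher and 1 lower, SDHAF3 (log2 −0.35, limma adjusted p = 0.0371). The SDHAF3 call did not hold without LOC550643 siRNA replicates 2 and 3 (adjusted p = 0.146 and 0.124) and control replicates 1 and 3 (0.157 and 0.068). For the ATP synthase, 1 of 6 was higher, ATPAF1 (log2 0.41, limma adjusted p = 0.00141), which acts on the beta subunit, and 2 lower, with TMEM70, which acts on the subunit c ring, at log2 −0.43 (limma adjusted p = 0.00588). Supercomplex and cristae organisers had 3 of 13 higher and 1 lower, with PHB at log2 0.30 (limma adjusted p = 0.0076) and HIGD2A at −0.30 (limma adjusted p = 0.0084). Coenzyme Q synthesis had 3 of 13 higher and 2 lower, with COQ3 at log2 0.54 (limma adjusted p = 0.00114) and COQ10A at −0.26 (limma adjusted p = 0.0187). The COQ10A call did not hold without LOC550643 siRNA replicates 1 and 3 (0.0568 and 0.0534) and control replicates 1 and 3 (0.075 and 0.0616). Among other donors of electrons to coenzyme Q, 2 of 8 were higher and 1 lower. ETFB and ETFDH, which bring electrons from fatty acid oxidation, were higher by log2 0.57 and 0.42 (limma adjusted p = 0.000657 and 0.00132).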

How the data were processed

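Poly-A RNA of 6 HEK293T samples was sequenced from both ends (75 bases) after a dUTP library protocol, per the labels. Reads were aligned with STAR 2.4.0 and counted over exons with HOMER, per the submitters' processing notes, on hg19, per the file headers, whose command shows no strand option. The per-library values are a signal, exon reads per gene that the authors scaled to a common total before they were deposited. They were whole multiples of a step in each library (tolerance 0.1 step), and read pairs were inferred by taking the step as 1 read end. Log2 fold changes, p-values and adjusted p-values in the deposited table are the authors' own, and the deposited length is a score in bases. Members and lists were chosen with earlier results of these data known. Genes named follow a rule on p, size of change, level and isoform pairs, and genes outside it were named after their values were seen. The values of 1 member are counted in the totals but not reported here.

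Values were scaled by TMM, filtered (edgeR 4.0.16, minimum 10 read pairs, 16245 genes left), turned to log2(value + 1 unit, 0.034 CPM), which understates changes of low genes, and tested with limma 3.58.1 (two-sided, moderated with a mean trend, Benjamini-Hochberg adjustment). Alternatives were 3 scalings, no filter, a pseudocount of 0.1, edgeR and DESeq2 1.42.0 on recovered reads, a replicate block, removal of length and GC trends, and each library left out, in R 4.3.3 and Python 3.11.15. The test was checked on simulated counts. Lengths are those of the listed transcripts and GC content that of GENCODE transcripts on GRCh37. Replicate libraries differed beyond sampling noise in each pair, by a chi-square of 5.32 to 41.6 times its degrees of freedom. Of the 105 members, 59 share exon bases with another annotated gene. Shared bases were counted over the exons of all annotated transcripts of a gene, so the listed transcript may share fewer. Read depths limit counting error only.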

Additional observations from a re-analysis of the deposited data

How the results depend on the processing

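The number of lower calls varied between alternatives. Of 43 called genes chosen by the naming rule, 28 kept their call under each alternative and 0 changed sign; over the 51 tested genes the rule chose, 731 of 815 alternative values kept direction and side of the threshold, 69 lost the call, 8 gained it and 7 changed sign. Those 7 belong to uncalled genes: the log2 fold change of NDUFA4 (0.029 without LOC550643 siRNA replicate 2, 0.039 without control replicate 1, from a range of −0.344 to 0.039 with 1 library left out), the log2 fold change of COX7C (0.033 with the length trend removed, 0.036 with length and GC trends removed, 0.025 without control replicate 1, from a range of −0.159 to 0.025) and the log2 fold change of COX8A (0.032 with either trend removal). Library totals alone, with 24.5% of all genes lower, gave 27 members lower. Of these, 14 were in complex I, 2 in complex II, 2 in complex III and 8 in complex IV, and 2 of complex IV were higher. In the other lists 13 were higher and 30 lower. Upper-quartile scaling gave 2 lower in complex II, where 35.6% of all genes were called, 43.1% of them higher. Without a filter, 10 members were lower, 1 of complex IV, where 25.2% of 21604 genes were called, 49.1% of them higher. With the length trend removed, 28 members were higher, 12 in complex I, 4 in complex III and 5 in the ATP synthase, with 31 in the other lists and a complex IV median of 0.032. With length and GC trends removed, 4324 of all genes and 35 members were higher, 16 in complex I, 6 in complex III, 7 in complex IV and 5 in the ATP synthase, with 33 in the other lists and a complex IV median of 0.032. With each library left out in turn, lower calls ran from 5 to 28 for members, 2 to 15 for complex I, 0 to 2 for complex II, 0 to 3 for complex III, 1 to 5 for complex IV, 1 to 3 for the ATP synthase and 8 to 21 for the other lists. Higher calls ran from 2 to 4 for complex IV and 1 to 4 for the ATP synthase, and the complex IV median from −0.159 to −0.004. Over all genes tested, deviations of same-numbered libraries correlated at 0.058, −0.283 and −0.12. Among the 99 tested members, replicate 1 was the highest of its group for 60 after LOC550643 siRNA and 83 after control siRNA. Replicate 2 was the lowest for 57 after LOC550643 siRNA and 92 after control siRNA. Whether the replicate numbers pair the samples was not tested over the members. The replicate block gave 16 members higher and 21 lower, where 33.2% of all genes were called, 49.8% of them higher. With that block 1 of complex III and 3 of the ATP synthase were lower, and its other counts were within 1.5 times. The cause of these shifts was not tested. At 8604236 read pairs, LOC550643 siRNA replicate 3 limits members near 3 CPM most.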
